A study of Rattus norvegicus with 8 samples.

Results

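Glycine receptors are chloride channels built from alpha subunits, which carry most of the glycine binding site, and a beta subunit, which gephyrin anchors beneath the inhibitory synapse. They are densest in brainstem and spinal cord, and volatile anaesthetics such as isoflurane are known to strengthen their current. Glycine is cleared from the extracellular space by GlyT1, the transporter encoded by Slc6a9, which sits mainly on astrocytes. The values here describe the alpha subunit genes Glra1, Glra2 and Glra3, the beta subunit gene Glrb, the gephyrin gene Gphn, and Slc6a9 in the brains of rats given isoflurane. The members are every probe set that the platform's probe-to-gene table assigns to 1 of these 6 genes, which gave 7 of the 8740 probe sets that are not array controls. These 7 stand for 5 genes: 3 probe sets name Glra1, and Glra2, Glra3, Gphn and Slc6a9 have 1 each. No probe set of that table carries the symbol Glrb, so the beta subunit was not analysed here.

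Whole brains of intubated rats were measured on 8 short-oligonucleotide arrays, 1 per sample. The control group was 3 samples from rats that breathed isoflurane for 3 min and were then perfused at once with cold saline. The exposed groups were 2 samples from rats given 2% isoflurane for 1 hr and 3 samples from rats given 2% isoflurane for 2 hr. A perfusion is labelled for the control rats only. All 3 groups therefore had isoflurane, and no group without it was analysed here. The labels give no strain, sex or age and no animal numbers, so they do not state that each sample is a separate rat. The p-values therefore reflect how far these samples differed, and some of that spread may be technical. In whole tissue, fewer cells of a type and less RNA per cell cannot be told apart.

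The columns had been scaled by the depositors, with 2% trimmed means between 150.2 and 150.3. The highest intensity on an array was 24393, 23009 and 37712 on control replicate 3, 1 hr replicate 1 and 2 hr replicate 3, and 3504 to 12445 on the other 5. The actin 3' to 5' ratio was 2.89 on control replicate 3 and 1.04 to 1.68 elsewhere. On all 8 arrays the brightest probe sets of 7 of 7 measured neuron markers and 7 of 8 astrocyte markers lay above background. So did those of 5 of 5 oligodendrocyte markers and 9 of 11 genes listed for hindbrain and cord neurons. Blood markers gave 2 of 2, cerebellum markers 2 of 2 and pituitary markers 4 of 6. Over all 8740 probe sets the share was 64.4%, so these counts do little to check the labelled tissue. Background was taken as an intensity of 9.1, the 20th percentile over all arrays, since detection calls were not used here. A stricter yardstick was the highest of the 15 control probe sets for bacterial transcripts on the same array, which ran from 13.1 to 38.9. Of the 120 readings of those controls 32.5% exceeded 9.1, so a reading little above it may carry no signal of the gene.

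Gphn and Slc6a9 were read on every array, whereas the receptor's alpha subunits lay at or close to background. At 9.1, 5 of the 7 probe sets were above background on at least 5 arrays, namely those of Gphn, Slc6a9 and Glra2 and 2 of the 3 of Glra1. Over all 8740 probe sets this share was 78.9%. Only Gphn and Slc6a9 exceeded the highest bacterial control on all 8 arrays, as did 44.7% of all probe sets. Brightness depends on the probes as well as on the transcript, so the levels of different probe sets are not set against each other.

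**Figure D1:**
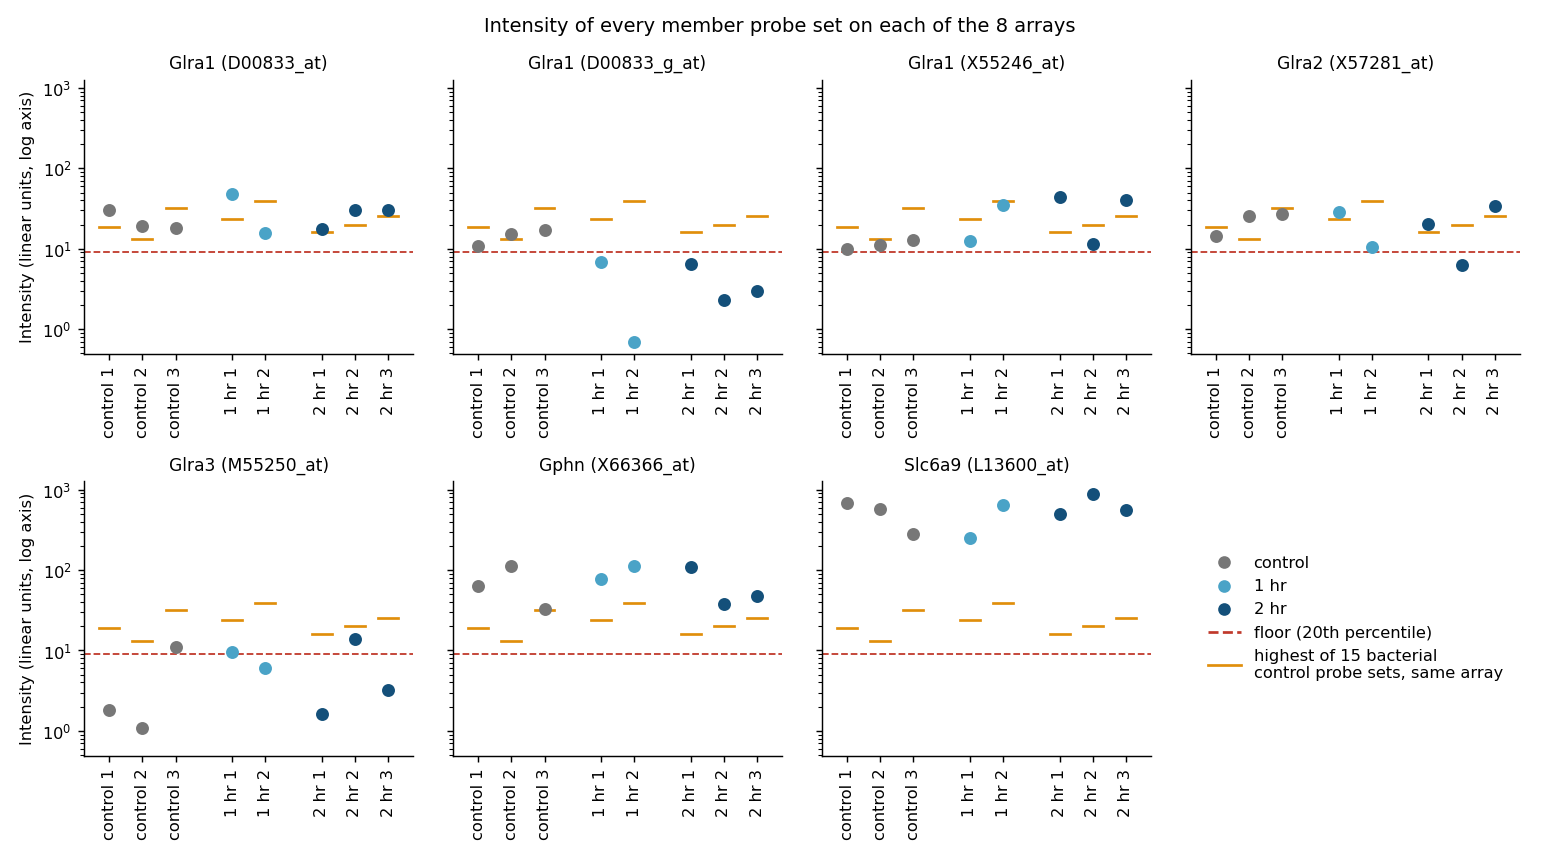
Deposited intensity (linear units on a log axis) of the 7 probe sets on each array, with control, 1 hr and 2 hr arrays in turn. The dashed line is the floor of 9.1 and the short bars give the highest bacterial control of that array. Gphn and Slc6a9 clear both on all 8 arrays, and the Glra probe sets scatter around them.

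Neither exposure moved any of the 7 probe sets past the test. Limma's moderated test over 7770 probe sets, with Benjamini-Hochberg adjustment and a threshold of 0.05, called 0 members at 2 hr and 0 at 1 hr, and the background was 0.00% of all probe sets in both comparisons. All member changes had an adjusted p of 1 in limma. After 2 hr 4 members had a positive and 3 a negative log2 change, with a median of 0.12 against 0.02 over all probe sets. After 1 hr 3 were positive and 4 negative, with a median of -0.05 against 0.05 over all probe sets. In both comparisons the member median is the value of Glra3, which was above the floor on only 3 of 8 arrays. It therefore gives no tendency of the members. The counts also include every Glra1 probe set, among them D00833_g_at, whose exposed arrays all sat at the floor. Log2 changes were taken after values under 9.1 had been raised to it, which understates the change of dim genes. The number of arrays limits the precision: standard errors of the members ran from 0.247 to 0.585 at 2 hr and from 0.276 to 0.654 at 1 hr on the log2 scale.

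**Figure D2:**
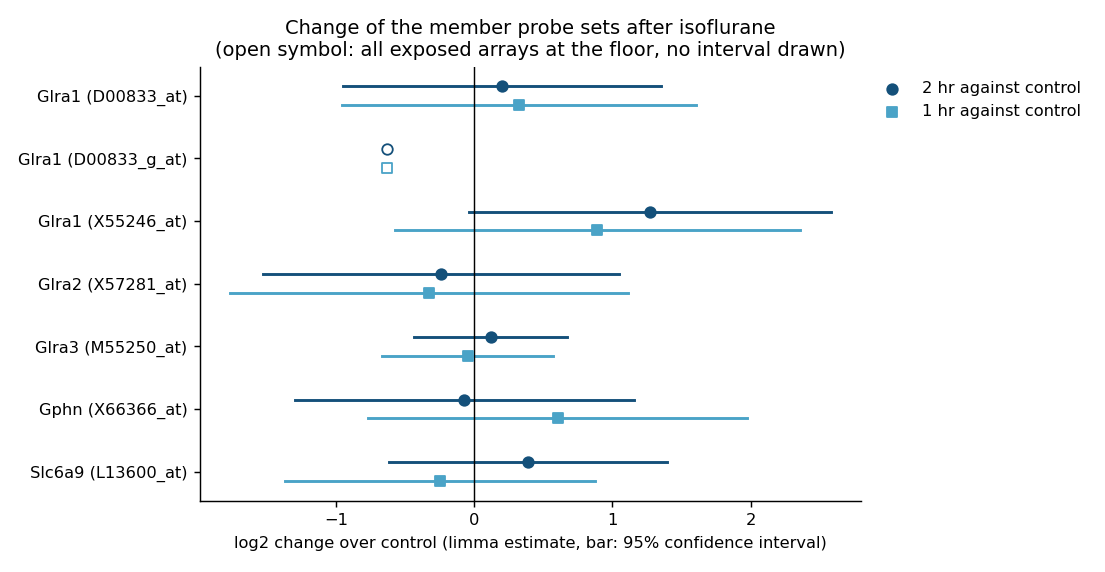
Estimated log2 change over control for each probe set after 2 hr (circles) and 1 hr (squares), with limma's unadjusted 95% confidence intervals. The intervals of 6 of the 7 probe sets include 0 in both comparisons. Glra1 D00833_g_at has open symbols and no interval, since its exposed arrays all sat at the floor and its value is set by that floor.

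Glra1 encodes the alpha 1 subunit, the main adult form of brainstem and cord, and its 3 probe sets differed in direction. D00833_at read 30.2, 19.3 and 18.3 in control, 48.3 and 15.7 at 1 hr, and 17.6, 30.4 and 30.2 at 2 hr. The highest reading and the lowest were the pair of 1 hr arrays, and the groups overlapped. It exceeded the highest bacterial control on 6 of 8 arrays. The log2 change was 0.20 (SE 0.51, 95% interval -0.95 to 1.35) at 2 hr and 0.32 (SE 0.57) at 1 hr, and the 1 hr value rested on 1 hr replicate 1, without which it was -0.49. With 1 array left out the 2 hr value ran from 0.07, among others without control replicate 3, to 0.46 without 2 hr replicate 1.

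D00833_g_at, designed from the same sequence record as D00833_at, ran the other way. It read 10.7, 15.2 and 17.3 in control, 6.8 and 0.7 at 1 hr, and 6.4, 2.3 and 3 at 2 hr. Every exposed array lay under the floor of 9.1 and every control array above it, so the groups did not overlap, and the fold is a bound: at least 1.55-fold lower at 2 hr and at 1 hr, a log2 change of -0.63 with values set to the floor. The probe set passed the filter only through its 3 control arrays, so its difference lends no support to a change of Glra1. All 2 hr arrays lay below all controls in 2.55% of all probe sets, and all 1 hr arrays in 5.11%. The control readings were themselves dim, and only that of control replicate 2 exceeded the highest bacterial control of its array. The change did not pass the test (limma, adjusted p = 1 in both comparisons).

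X55246_at, designed from a different sequence record of Glra1, read 10, 11.2 and 13 in control, 12.5 and 35.3 at 1 hr, and 44.4, 11.5 and 40.3 at 2 hr. The 3 control arrays lay close together, 3 of the 5 exposed arrays stood well above them, and 1 hr replicate 1 and 2 hr replicate 2 fell among them. Its mean log2 intensity was 4.78 ± 1.09 (SD, n = 3) at 2 hr and 3.50 ± 0.19 (SD, n = 3) in control. That is a log2 change of 1.27 (SE 0.59, 95% interval -0.04 to 2.59), the largest in size of the 7 at 2 hr, and it did not pass (limma, adjusted p = 1). At 1 hr the change was 0.89 (SE 0.65) with both arrays, 1.64 without 1 hr replicate 1 and 0.14 without 1 hr replicate 2. At 2 hr it was 1.90 without 2 hr replicate 2, and 0.40 with the floor raised to the 40th percentile of 27.9, under which all control readings fell. Only 2 of its 8 readings, both at 2 hr, exceeded the highest bacterial control. D00833_at and X55246_at had positive changes over control in both comparisons, and D00833_g_at negative ones set by the floor. The 3 probe sets of Glra1 thus gave no common direction, and none passed the test.

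Glra2 encodes the alpha 2 subunit, the form that prevails in the fetal brain. Its probe set X57281_at read 14.6, 25.9 and 27 in control, 28.5 and 10.5 at 1 hr, and 20.2, 6.2 and 33.6 at 2 hr. The lowest reading and the highest were both 2 hr arrays, so the spread within that group covered the other groups. The log2 change was -0.24 (SE 0.58, 95% interval -1.53 to 1.05) at 2 hr and -0.33 (SE 0.64) at 1 hr. The direction at 2 hr turned to 0.26 without 2 hr replicate 2, and that at 1 hr to 0.39 without 1 hr replicate 2.

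Glra3 encodes the alpha 3 subunit, best known from the pain pathways of the dorsal horn. M55250_at read 1.8, 1.1 and 10.9 in control, 9.6 and 6 at 1 hr, and 1.6, 13.9 and 3.2 at 2 hr. A single array of each group lay above the floor and none exceeded the highest bacterial control, so Glra3 was not detected above background here and its log2 changes of 0.12 (SE 0.25) at 2 hr and -0.05 (SE 0.28) at 1 hr compare arrays that mostly sat at the floor. Without 2 hr replicate 2 the 2 hr value was -0.09.

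Gphn encodes gephyrin, the scaffold that holds glycine receptors and many GABA-A receptors at the synapse and that also serves in making the molybdenum cofactor. X66366_at read 63.3, 111.7 and 32.5 in control, 77.7 and 111.5 at 1 hr, and 108.5, 38 and 48 at 2 hr. Each group held an array above 100, and the arrays of one group differed as widely as the groups did. The mean log2 intensity at 2 hr was 5.86 ± 0.79 (SD, n = 3) and that of control 5.94 ± 0.89 (SD, n = 3). The log2 change of -0.07 (SE 0.55) at 2 hr had a 95% interval of -1.30 to 1.15, which leaves room for changes past 2-fold either way. At 1 hr the change was 0.60 (SE 0.61, 95% interval -0.77 to 1.97), and 2 hr lay 0.68 (SE 0.61) below 1 hr on the log2 scale. None of the 3 differences passed (limma, adjusted p = 1). Without 1 hr replicate 2 the 1 hr change was 0.34, and with 1 array left out 2 hr against 1 hr ran from -1.12 without 2 hr replicate 1 to -0.37 without 2 hr replicate 2.

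The Gphn estimates changed when single arrays were left out and when a block for an array property was fitted. Without control replicate 3 the log2 change was -0.53 at 2 hr and 0.15 at 1 hr, and without control replicate 2 it was 0.36 at 2 hr and 1.04 at 1 hr. The array's 5S ribosomal RNA control read 12.9 to 23.7 on control replicates 1 and 2 and 2 hr replicate 1, and 70.4 to 141.7 on the other 5 arrays. With this split as a block the log2 change was 0.38 at 2 hr and 1.51 at 1 hr. Within the arrays of higher 5S reading 2 hr differed from control by 0.39 (2 arrays against 1), and within those of lower reading by 0.37 (1 against 2). Both 1 hr arrays were of higher reading, where they differed from control by 1.52 (2 against 1). That 1 control was replicate 3, the array of lowest Gphn reading. The part of this array property in the Gphn readings was not tested further.

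Slc6a9, the glycine transporter GlyT1, was read far above background on all 8 arrays. L13600_at read 678.9, 577.2 and 283.2 in control, 253.2 and 645.8 at 1 hr, and 497.4, 885.6 and 564.6 at 2 hr. Control replicate 3 and 1 hr replicate 1 were low and the other 6 arrays were not below 497.4, so the low readings came from both a control and an exposed sample. The mean log2 intensity was 9.30 ± 0.44 (SD, n = 3) at 2 hr and 8.91 ± 0.67 (SD, n = 3) in control, a change of 0.39 (SE 0.45, 95% interval -0.62 to 1.39). At 1 hr the mean was 8.66 ± 0.96 (SD, n = 2) and the change -0.25 (SE 0.50), and 2 hr lay 0.64 (SE 0.50) above 1 hr. None passed (limma, adjusted p = 1).

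The 2 arrays of low Slc6a9 reading are also 2 of the 3 arrays with the highest top intensity. The actin 3' to 5' ratio was 2.89 on control replicate 3, the highest of the 8 arrays, and 1.46 on 1 hr replicate 1. The part of these array properties in the Slc6a9 readings was not tested. Without control replicate 3 the 2 hr change was 0.01, and without 1 hr replicate 1 the 1 hr change was 0.43. Among the 3 arrays of highest top intensity 2 hr exceeded control by 1.00 on the log2 scale (1 array against 1), and among the other 5 by 0.08 (2 against 2). The summed intensity of the 8 measured astrocyte markers ran from 10142 to 17174 in control, from 11886 to 14284 at 1 hr and from 7150 to 15875 at 2 hr, with overlap between all groups. Aldoc alone ran from 1090.6 to 6713.3 over the arrays, so this sum need not follow the share of astrocytes. On their brightest probe sets 5 of these 8 genes were positive and 3 negative at 2 hr, and 0 passed. Over all 7770 probe sets 4049 were positive. Slc1a2 counted as positive at 0.29, but others of its probe sets read -0.60 and -0.22. Other probe sets of Slc1a3, Glul, S100b and Aldoc kept the sign of the brightest. The part of these genes in the Slc6a9 readings was not tested.

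**Figure D3:**
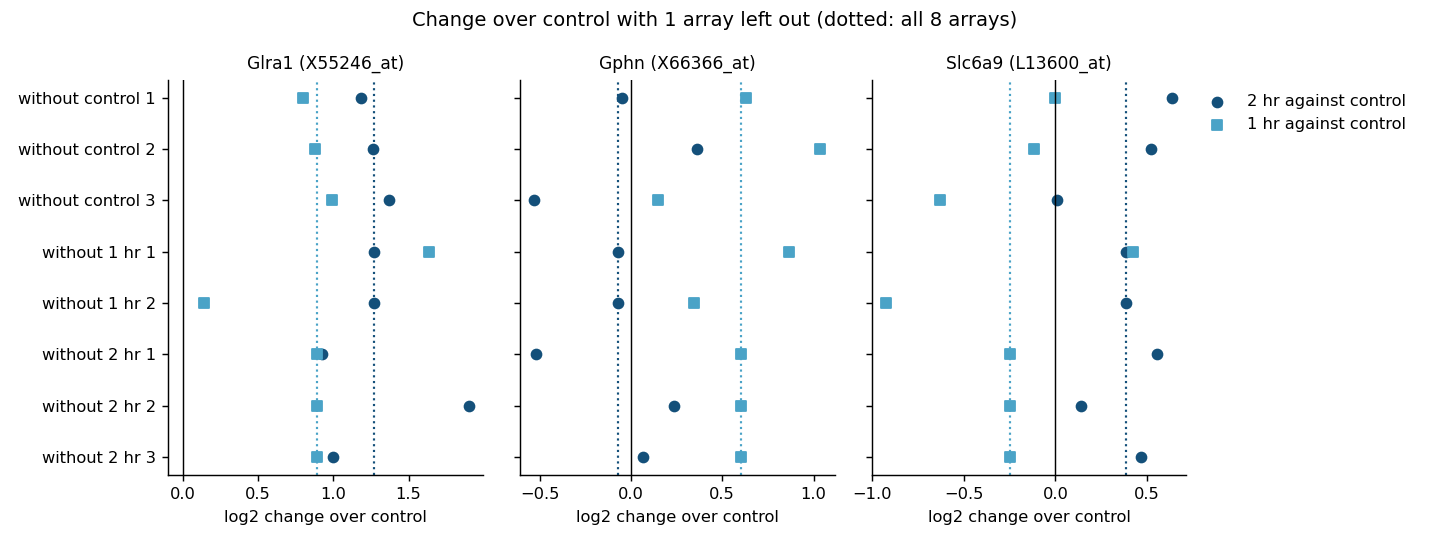
Log2 change over control of Glra1 X55246_at, Gphn and Slc6a9 with each array left out in turn, for 2 hr (circles) and 1 hr (squares). Dotted lines mark the values with all 8 arrays. The Slc6a9 change at 2 hr is 0.01 without control replicate 3, and the Gphn change at 2 hr falls on both sides of 0.

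Between 2 hr and 1 hr the members gave 0 calls too, with a background of 0.00% (limma). Glra1 D00833_g_at could not be compared, since all 5 arrays sat at the floor. The other 6 log2 differences ran from -0.68 for Gphn to 0.64 for Slc6a9, and standard errors of the 7 from 0.276 to 0.654. The groups overlapped for every member in this comparison.

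The genes whose readings followed a member most closely over the 8 arrays were ranked by Pearson's r of log2 intensity, as a description with no test, since each is the highest over all genes tested and the arrays share their scaling. For Gphn they were Nr3c2, the mineralocorticoid receptor, at r = 0.97 and Gnai1, an inhibitory G protein subunit, at r = 0.94. For Slc6a9 they were Mms19, a factor of iron-sulfur protein assembly, at r = 0.99 and Arhgef7, an exchange factor for Rac and Cdc42, at r = 0.99. Both shared the low readings of control replicate 3 and 1 hr replicate 1 with Slc6a9. For Glra2 they were Synj1, the lipid phosphatase of synaptic vesicle recycling, at r = 0.98 and the neuronal RNA-binding protein gene Elavl4 at r = 0.94. The brightest probe set of Glra1, D00833_at, ran closest to the kinase gene Sbk1 at r = 0.98 and the peroxisomal thiolase gene Acaa1b at r = 0.95. Glra3 ran closest to probe sets of Bdnf, at r = 0.99, and Abcc1, at r = 0.97, but Glra3 itself was at the floor on 5 of 8 arrays. That Bdnf probe set was above the floor on only 2 of 8, both dim, and Abcc1 on 6, so these 2 figures compare readings near background.

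**Figure D4:**
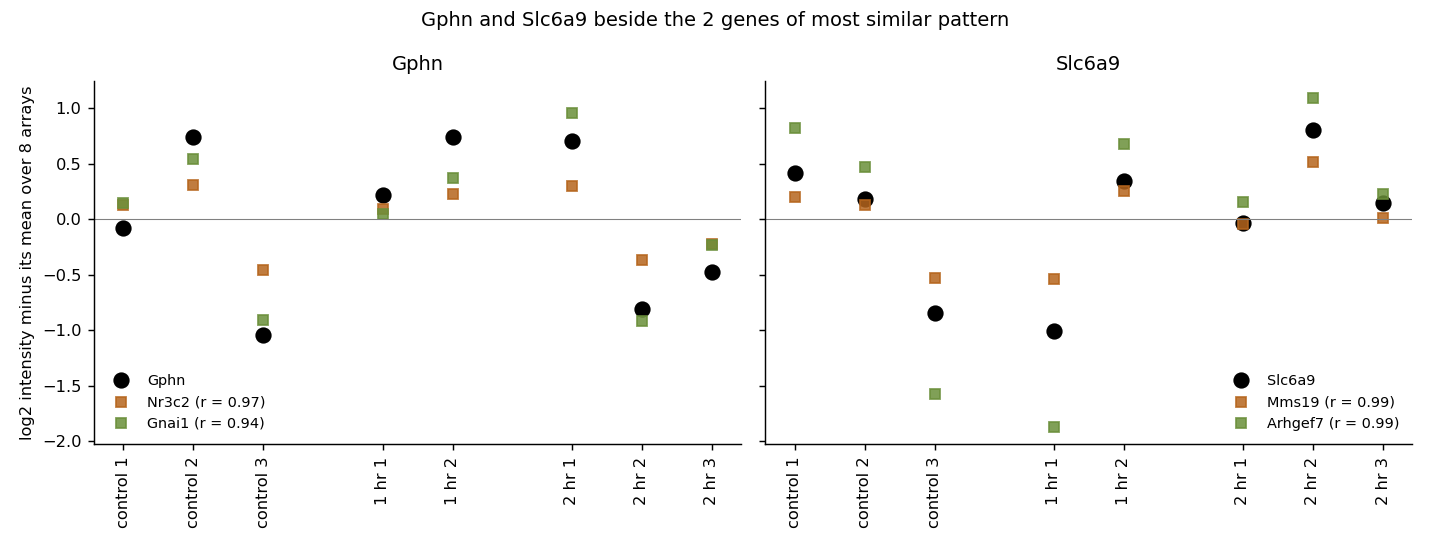
Log2 intensity minus its mean over the 8 arrays, for Gphn (left) and Slc6a9 (right, circles) and the 2 genes of most similar readings (squares). Control replicate 3 is low in both panels, and 1 hr replicate 1 is low for Slc6a9 and its companions but not for Gphn.

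Other genes that make, move or respond to glycine, or build the inhibitory synapse, were taken from a list of 28, of which 11 had a named probe set and 9 passed the filter on low values. Of these 9, 0 passed the test in any comparison (limma). On their brightest probe sets 6 had a positive and 3 a negative log2 change at 2 hr, and the median change was 0.11 at 2 hr and 0.06 at 1 hr. Phgdh counted as positive at 2 hr with 0.23, but others of its probe sets read -0.61 and -0.12. Slc12a2 changed by 0.42 at 1 hr, but others of its probe sets read -1.14 and -0.06. The smallest unadjusted p-values at 2 hr belonged to Mtor, Slc12a5 and Psat1. Slc12a5, the KCC2 transporter that keeps neuronal chloride low, read 458.8, 571.7 and 591.1 at 2 hr and 402.5, 697 and 155.1 in control. The low control replicate 3 carried its log2 change of 0.61 (SE 0.50), which was 0.02 without that array.

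Mtor, a growth-controlling kinase that binds gephyrin, read 262.1, 220.1 and 173.7 at 2 hr and 198.9, 184.7 and 114 in control, a log2 change of 0.42 (SE 0.31) that was 0.17 without control replicate 3. Psat1, an enzyme of serine synthesis upstream of glycine, had a change of -0.30 (SE 0.34) on its brightest probe set, and others of its probe sets read 1.19, 0.07 and -0.28. Slc6a5 and Slc32a1 are named here after their values were seen, because they mark glycine-releasing neurons. Slc6a5, the neuronal glycine transporter GlyT2, read 65.2, 70.9 and 68.8 in control, 68.3 and 74 at 1 hr, and 51.4, 105.8 and 70.3 at 2 hr, above the highest bacterial control on all 8 arrays. Its log2 change was 0.09 (SE 0.36) at 2 hr, and all 3 groups overlapped. Slc32a1, the vesicular transporter of GABA and glycine, changed by 0.11 (SE 0.35) on its brightest probe set and read -1.12 on another. The filter removed Nlgn2 and Enah, which lay under the floor on all 8 arrays.

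**Figure D5:**
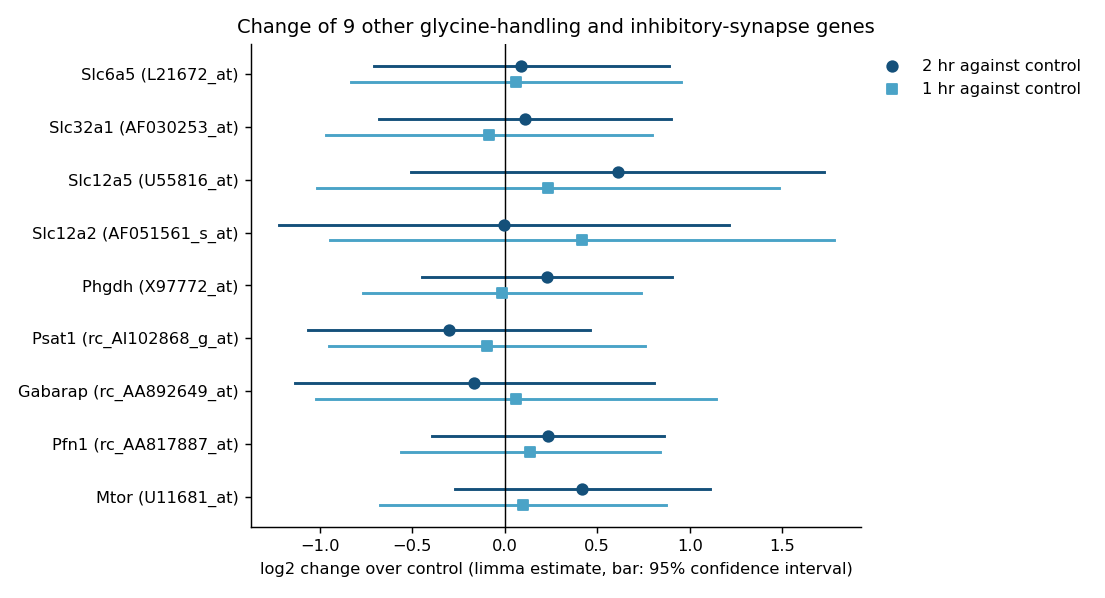
Estimated log2 change over control of the 9 listed genes that passed the filter, after 2 hr (circles) and 1 hr (squares), with limma's unadjusted 95% confidence intervals. Only the brightest probe set of each gene is drawn. All intervals drawn include 0, and the largest change in size among them is that of Slc12a5 at 2 hr, 0.61.

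Glycine receptors are densest in hindbrain and cord, and a list of markers of those neurons was set beside the members. Not all of the listed genes are particular to those neurons. Nefh alone ran from 36.7 to 355.8 over the arrays, so the sum of the list need not follow the share of hindbrain. The summed intensity of the 11 measured markers of hindbrain and cord neurons ran from 646 to 834 in control, from 787 to 822 at 1 hr and from 542 to 850 at 2 hr, so the groups overlapped. Of the 10 that passed the filter 7 had a positive and 3 a negative log2 change at 2 hr, with a median of 0.12, and 0 passed the test. Of the 11, Slc6a5, Slc6a2, Slc6a4, Fev, Slc18a3, Chat, Prph, Calca and Nefh were above the floor on all 8 arrays, Dbh, the noradrenaline-making enzyme, on 1 and Phox2a, a transcription factor of noradrenergic neurons, on 3. At 1 hr 8 of the 10 that passed the filter were positive and 2 negative, with a median of 0.19. Over all 7770 probe sets 4049 were positive at 2 hr and 4334 at 1 hr. Another probe set of Slc6a4 read -0.88 at 1 hr, and others of Slc18a3, Calca and Nefh read 0.05, 0.17 and 0.28. Neuron markers had a median log2 change below 0.01 in size at 2 hr, oligodendrocyte markers one of -0.02, cerebellum markers 0.03 over 2 genes, blood markers -0.21 over 2 and pituitary markers 0.23 over 6. The neuron median was the value of Snap25 on its brightest probe set, and others of its probe sets read 0.68, 0.54 and -0.10. Of the 7 neuron markers 5 were positive, among them Syn1 at 0.78, Camk2a at 0.77 and Syt1 at 0.62. The 2 negative ones were Nefm at -0.22 and Syp at -0.23. At 1 hr the medians were 0.14 for neuron, 0.10 for astrocyte and 0.25 for oligodendrocyte markers. Those of cerebellum, blood and pituitary markers were -0.38, 0.29 and 0.48. On their brightest probe sets 6 of 6 pituitary genes were positive at 1 hr. Another probe set of Cga read -0.38 and another of Lhb 0.81, and Prl and Tshb were above the floor on only 5 and 4 of 8 arrays. In both comparisons 0 genes of these lists passed (limma), and their part in the members' readings was not tested.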

How the data were processed

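The deposited values are linear intensities, 1 for each of 8799 probe sets on each array. The sources used here name neither the software nor the scaling method. After setting aside 59 array controls, intensities under the 20th percentile (9.1) were raised to it, log2 was taken, and the 7770 probe sets above the floor on at least 2 of 8 arrays were kept, all 7 members among them. Symbols came from the platform's annotation, updated through the gene number for 6985 probe sets to RefSeq's table, which was used for names only. 7006 probe sets had 1 symbol, 308 several and 1426 none.

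Limma 3.58.1 (R 4.3.3; lmFit, contrasts.fit, eBayes with trend) was fitted to all 8 arrays with 1 mean per group, two-sided, with Benjamini-Hochberg adjustment over 7770 probe sets. The precision is limited by the number of arrays. No array pair shared more than 70 identical values. In simulated data with 200 of 7770 probe sets changed, the fit recovered 41.9% of changes of 2 (log2) for 2 hr against control, 26.7% for the 1 hr comparison with control and 24.6% for 2 hr against 1 hr, and of changes of 1 (log2) 3.35%, 1.00% and 1.45%.

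Every probe set of the members is named. From the glycine list the rule took genes that passed or otherwise the 3 smallest unadjusted p-values at 2 hr, and, as most alike, the 2 genes of highest Pearson's r with each member's brightest probe set. Lists use each gene's brightest probe set. Members, lists, settings and array blocks were chosen with earlier results of these data known. The highest bacterial control as background was added after the values were seen. Alternatives were other floors, a pseudocount of 16, normalizations, filters, no trend, fewer groups, blocks and single arrays left out.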

Additional observations from a re-analysis of the deposited data

How the results depend on the processing

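None of the 405 values that the 21 member changes took under up to 20 alternatives passed the threshold (limma), 378 kept their direction or were 0, and 27 turned. The counts of probe sets called were 0 in each comparison with all 8 arrays (139, 208 and 215 at an unadjusted p under 0.05 for 2 hr against control, 1 hr against control and 2 hr against 1 hr), and 0 with 1 array left out or with the replicate block. They were 4 without the filter for 1 hr against control and for 2 hr against 1 hr, the same probe sets in both: those of Mapk8, Tcf21 and Ldhc and 1 without a symbol (rc_AI639284_at), none a member. The number of members above background on at least 5 arrays was 5, beside 78.9% of all probe sets. It became 2 with the floor at the 40th percentile, which 58.2% of all probe sets exceeded on as many arrays. Against the highest bacterial control it was 3. The share of all probe sets on at least 5 arrays was not taken for that yardstick, so this count cannot be judged against it. Glra2 turned to 0.089 (2 hr) and 0.015 (1 hr) with the floor at the 40th percentile, and for 2 hr against 1 hr to -0.10 at the 5th, -0.0076 with the pseudocount and -0.21 with the replicate block. Glra3 turned to 0.93 (1 hr) and -0.68 (2 hr against 1 hr) at the 5th percentile, and to 0.24 and -0.13 with the pseudocount. Gphn turned to 0.38 at 2 hr with the 5S block, and with the replicate block its 1 hr change was 0.31. With 1 array left out, ranges that crossed 0 at 2 hr were -0.68 to 0.26 for Glra2, -0.087 to 0.22 for Glra3 and -0.53 to 0.36 for Gphn. At 1 hr they were -0.49 to 1.13 for Glra1 D00833_at, -1.05 to 0.39 for Glra2, -0.092 to 0.039 for Glra3 and -0.92 to 0.43 for Slc6a9. For 2 hr against 1 hr they were -0.93 to 0.69 for D00833_at, -0.37 to 1.13 for X55246_at, -0.64 to 0.81 for Glra2, -0.039 to 0.27 for Glra3 and -0.038 to 1.31 for Slc6a9. A lone remaining 1 hr array was assumed to vary like the other groups. The cause of these turns was not tested. Several alternatives leave a log2 change as it was by construction. These are no filter, the strict filter, no trend, fewer groups, and leaving out an array of the group not compared. Part of the 378 was therefore fixed in advance, and that count does not measure how stable the directions are. The strict filter gave no value for Glra2, Glra3 and D00833_g_at, and the 40th percentile none for Glra3 and D00833_g_at. Replicate numbers showed no clear pairing: deviations of same-numbered arrays correlated between -0.33 and 0.29, and 2 of 8 arrays correlated best with their own number. These deviations are from means of 2 or 3 arrays, which constrains their correlations, so this check cannot decide whether the arrays were paired.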
